A study of Mus musculus with 2 samples.

Results

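Among the capillary endothelial cells of mouse lymph nodes, one set was picked by the summed UMIs (unique molecular identifiers, tags that mark single captured RNA molecules) of Scgb3a1, Srarp and Thrsp. A barcode was kept as a blood endothelial cell when it had at least 500 genes, at most 10% mitochondrial UMIs and 1 clear hashtag, at least 3 UMIs of Flt1, Ly6c1 and Cd34 together, more of these than of the lymphatic genes Prox1, Pdpn, Mmrn1 and Lyve1, and fewer than 20 UMIs of Glycam1. It entered the set when Scgb3a1, Srarp and Thrsp gave at least 2 UMIs and more than each of 5 other panels, which were led by Penk, by Enpp2 and by arterial, tip-cell and venous genes. Of 10612 barcodes, 10470 passed on genes and mitochondrial share, 9919 also had 1 clear hashtag, 5260 were kept as blood endothelial cells, and 876 of these (16.7%) met the rule. The rule was drawn from these data, so the levels of its own genes describe the cells and support nothing. The working name of the set, Scgb3a1 capillary cells, covers it only in part. Thrsp was detected in 800 of the 876 cells (91.3%), Scgb3a1 in 332 (37.9%) and Srarp in 173 (19.7%). The cells are therefore called Thrsp/Scgb3a1 cells below.

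The cells came from WT and Xbp1-KO mice, all treated with tamoxifen, which also covers the controls. Peripheral and mesenteric lymph nodes were kept apart for each genotype, and each of the 2 droplet libraries held the same 4 pools of cells, 1 for every combination of genotype and node, told apart by hashtags carried on antibodies. Per the labels, peripheral nodes were pooled, digested with collagenase P, Dispase and DNase, depleted of CD45-positive blood cells and sorted for endothelial cells, and no separate digestion is described for mesenteric nodes. The driver that deletes Xbp1, the cells it acts in, the number and age of the animals and how the tamoxifen was given are not stated in the sources used here. Each group of genotype and tissue thus has 2 pools, 1 per library. How the animals were divided over the libraries is not stated either. Sex-linked transcripts, given below, differed between the 2 libraries within each genotype label, so pools with the same label did not hold the same animals. The p-values measure the spread between these pools, which need not be that between animals. A fit without 1 library has 1 pool per group, so its p-values do not measure that spread and show only how calls move.

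Capillary endothelial cells form the exchange vessels of the node, upstream of the high endothelial venules through which lymphocytes enter. Thrsp encodes Spot 14, a thyroid-hormone-responsive nuclear protein known from fatty acid synthesis in liver and fat. Scgb3a1 encodes a small secreted protein of the secretoglobin family, known best from airway epithelium, and Srarp encodes a protein that binds steroid receptors. XBP1 is made as an active transcription factor once its mRNA is spliced under stress of the endoplasmic reticulum (ER), and it raises genes for protein folding and secretion.

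The 250 bases upstream of the annotated starts of Scgb3a1 and Srarp are shown because these 2 of the panel's 3 genes had the higher mean level in mesenteric cells, where the homeobox gene Nkx2-3, described below, was also higher. The letters AAGTG, the core of the motif that NKX2 factors bind, were searched on both strands, and a match is in capitals. Sequences are from RefSeq on GRCm38.p6. The Scgb3a1 window, chr11:49663345-49663594 on the + strand, held 1 match and the Srarp window, chr4:141436106-141436355 on the - strand, held 0. AAGTG occurs in 40.7% of 32851 mouse promoter windows of this length, so neither count sets these windows apart.
Scgb3a1: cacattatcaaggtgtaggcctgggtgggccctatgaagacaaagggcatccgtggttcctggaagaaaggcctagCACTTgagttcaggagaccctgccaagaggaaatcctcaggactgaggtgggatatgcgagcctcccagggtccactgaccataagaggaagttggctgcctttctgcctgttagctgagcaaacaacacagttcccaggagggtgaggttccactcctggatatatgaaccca
Srarp: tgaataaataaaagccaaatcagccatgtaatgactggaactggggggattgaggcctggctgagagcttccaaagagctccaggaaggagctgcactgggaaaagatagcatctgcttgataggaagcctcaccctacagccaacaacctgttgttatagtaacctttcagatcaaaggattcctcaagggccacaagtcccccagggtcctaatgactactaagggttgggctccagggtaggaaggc

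Most Thrsp/Scgb3a1 cells carried Thrsp, alone or with another panel gene. In 430 of 876 cells (49.1%) it was the panel's sole gene with a UMI, 220 (25.1%) carried Scgb3a1 and Thrsp, 110 carried Srarp and Thrsp, 53 carried Scgb3a1 without the others, and 40 carried all 3. The summed panel was shallow, with a median of 2 to 4 UMIs per cell across the 8 pools. Cells with Thrsp as the sole panel gene made up 75.6% of the 250 peripheral cells and 38.5% of the 626 mesenteric cells.

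Scgb3a1 was detected mainly in mesenteric cells. It was found in 301 of 626 mesenteric (48.1%) and in 31 of 250 peripheral Thrsp/Scgb3a1 cells (12.4%). In library 1 the share was 14.3% and 11.3% in the WT and Xbp1-KO peripheral pools, and 52.4% and 37.9% in the WT and Xbp1-KO mesenteric pools. In library 2 it was 11.1% and 8.57%, and 62.9% and 39.3%, in the same order. All 4 mesenteric pools lay above all 4 peripheral pools, and in both libraries the WT mesenteric pool was the highest. Levels below are in CPM, a gene's UMIs over all UMIs of the pool's summed cells on the customary scale. Scgb3a1 (chromosome 11, 49663610 to 49665118, + strand) had a level of 112, 55.7, 49.0 and 147 in the peripheral pools, in the order library 1 WT, library 1 Xbp1-KO, library 2 WT, library 2 Xbp1-KO, which is kept below. It had 911, 609, 565 and 373 CPM in the mesenteric pools. Thrsp (chromosome 7, 97412938 to 97417730, - strand) overlapped between the nodes, at 944, 978, 768 and 823 CPM in peripheral and 856, 812, 570 and 603 CPM in mesenteric pools. Srarp (chromosome 4, 141432672 to 141436105, - strand) was at 53.1, 30.4, 49.0 and 65.2 CPM in peripheral and 108, 61.3, 83.4 and 127 CPM in mesenteric pools, and the highest peripheral pool lay above the lowest mesenteric one.

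Outside the set the 3 genes were spread unevenly. Scgb3a1 was found in 11.7% of 1722 Enpp2 cells (median 3360 UMIs per cell), 5.98% of 1456 cells with no leading panel, 4.32% of 556 arterial-panel cells and 1.24% of 403 Penk cells, against 0.776% of 3608 lymphatic cells, which had the greater depth (median 5524 UMIs) and stand here for the background from free RNA. Enpp2 cells repeated the tissue pattern: 22.0% to 29.1% of them had a Scgb3a1 UMI in mesenteric pools and at most 5.30% in peripheral pools, with 0 of 109 in library 2 WT peripheral, which allows a share of up to 2.75%. Thrsp was less restricted, in 56.1% of Penk, 39.5% of Enpp2, 24.3% of arterial-panel and 40.2% of no-panel cells, but in 1.86% of lymphatic cells. These shares outside the set are held down by the rule itself, which takes in cells with more than 1 panel UMI unless another panel leads or ties.

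**Figure D1:**
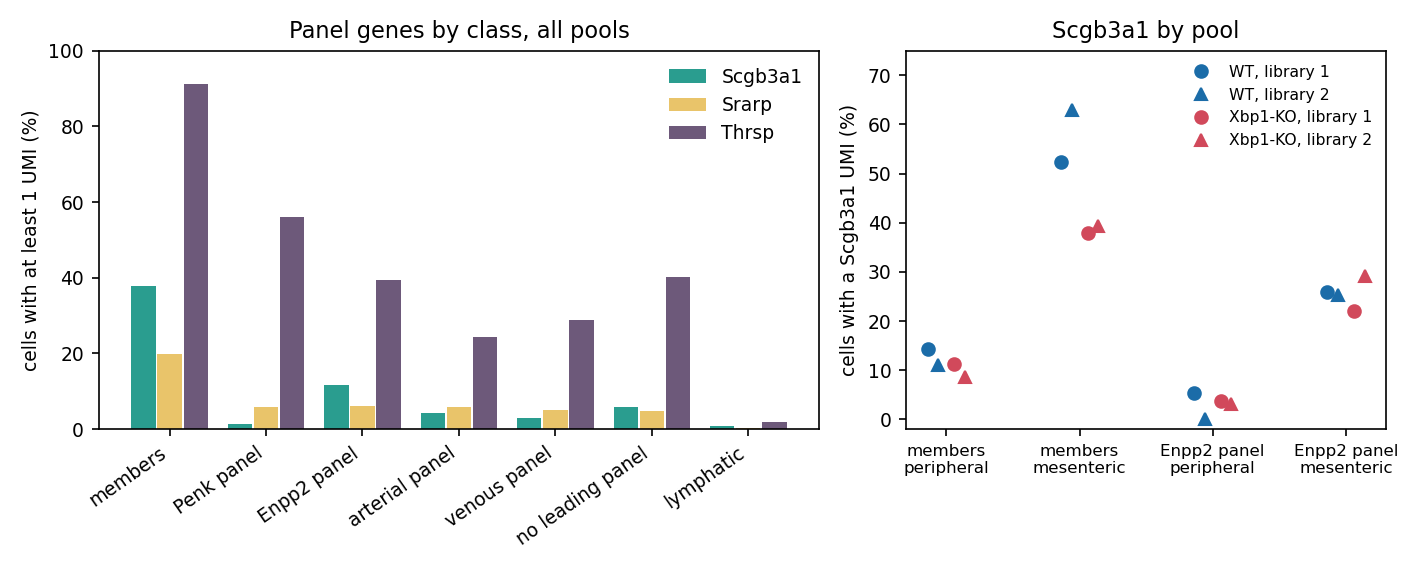
Left, percentage of cells with at least 1 UMI of Scgb3a1, Srarp or Thrsp in each class, all pools joined; right, percentage with a Scgb3a1 UMI in Thrsp/Scgb3a1 cells and in Enpp2 cells, 1 point per pool (color, genotype; shape, library). Thrsp is found in 91.3% of the chosen cells and Scgb3a1 in 37.9%, and in both classes the 4 mesenteric points lie above the 4 peripheral points.

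The sums tested below held 126, 71, 18 and 35 peripheral cells and 319, 95, 62 and 150 mesenteric cells, and 61216 to 897218 UMIs per pool. Per cell, Thrsp/Scgb3a1 cells had a median of 2636 UMIs and 1257 genes, against 2979 and 1378 in Penk cells and 3360 and 1500 in Enpp2 cells. Xist, the RNA that coats the silenced X chromosome, had 522 and 409.8 CPM in the Xbp1-KO pools of library 1 and 572 and 403 CPM in the WT pools of library 2, and 0 to 8.92 CPM in the other 4. Ddx3y of the Y chromosome ran the other way, at 47.5 to 85.4 CPM in those 4 pools and at most 10.1 CPM elsewhere. Genotype thus went with opposite sex-linked expression in the 2 libraries. Scrublet, a doublet caller, marked 233 of 7626 barcodes in library 1 and 3 of 2844 in library 2, too few in the latter to have worked, and 8 and 1 of the chosen cells, which were kept. The libraries shared 3 barcode sequences, 1 of them in the set.

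The cells carried the program of blood capillaries. All 7 pan-endothelial markers (such as Pecam1, Cdh5 and Tie1) and all 10 capillary markers were detected, summing to 5700 to 7157 CPM and to 10291 to 11837 CPM per pool. Gpihbp1, which anchors lipoprotein lipase on the capillary wall, was at 1341, 1515, 1356 and 1133 CPM in peripheral and 1605, 1521, 1357 and 1355 CPM in mesenteric pools. The arterial list, with 9 of 9 genes detected, summed to 553 to 1052 CPM, against 578 to 924 CPM in Enpp2 cells. For the tip list, with 6 of 6 detected, the sum was 167 to 294 CPM. For the venous list, with 6 of 7, it was 147 to 301 CPM. The lists below stayed under the arterial one. The high endothelial list summed to 65.3 to 436 CPM with Chst4 at 0, against 307 to 1156 CPM in Enpp2 cells, the lymphatic list to 32.7 to 315 CPM with Reln at 0, the mural list to 8.15 to 116 CPM with Acta2 at 0, and the fibroblast list to at most 18.5 CPM with Lum at 0. B-cell, T-cell, myeloid and dividing-cell lists each stayed at or below 16.8 CPM. The adipocyte list reached 107 CPM in 1 mesenteric Xbp1-KO pool, with Plin1 at 0 in all pools.

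Set beside the other capillary classes, Thrsp/Scgb3a1 cells had more of Rbp7, Cd36, Mgll and Gpihbp1 than Enpp2 cells and less of Ccl21a, Ubd and Lrg1. The comparison is a description within pools, since the classes were defined on these cells. It took genes at 100 CPM or more in the higher class, and the median over the 8 pools of the log2 difference of CPM plus 10. Against Enpp2 cells, 136 of 1619 genes (8.40%) were higher and 146 (9.02%) lower in 8 of 8 pools. The genes that stood furthest above were Rbp7, an intracellular retinol-binding protein of capillary endothelium (2.21 log2 units; 1092 against 271 CPM over all pools), the fatty acid receptor Cd36 (1.40; 997 against 267 CPM), the monoacylglycerol lipase gene Mgll (1.27; 714 against 248 CPM) and the secreted protease inhibitor Cst3 (1.27; 1404 against 639 CPM). Pcp4l1, Gm12002, Depp1 and Rgcc followed at 1.16, 1.11, 1.08 and 1.05 log2 units.

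Among the genes lower than in Enpp2 cells, the chemokine gene Ccl21a, which is also made in bulk by lymphatic and stromal cells, stood at -3.52 log2 units (82.6 against 1188 CPM), the ubiquitin-like gene Ubd at -2.58, the desmosomal cadherin Dsg2 at -2.17, the secreted glycoprotein Lrg1 at -1.37 and the cyclin Ccnd1 at -1.33. Of 17 genes of the lipid-uptake list at 10 CPM or more, 4 (Cd36, Gpihbp1, Plin2 and Tcf15) were higher in 8 of 8 pools and 1, Apoe, was lower. Over all 8259 genes at that level, 2.64% were higher and 3.6% lower in 8 of 8 pools. The list's median difference was 0.43 log2 units, against -0.03 over those genes. Against all other kept blood endothelial cells together it was 0.04, with 1 of 17 higher and 1 lower in 8 of 8 pools. Cells of the arterial panel had 1114 CPM of Cd36 and 6794 CPM of Fabp4, against 997 and 6557 CPM in Thrsp/Scgb3a1 cells, so high levels of these 2 genes were not particular to the set. Of the 16 capillary barrier and transport genes, 5 (Jam2, Cavin2, Car4, Rgcc and Emcn) were higher and 1, the water channel gene Aqp1, was lower. Of the 15 immediate-early genes, 8 were higher, among them Fos, Jun and Dusp1, and 4 of 13 heat-shock genes were. These transcripts rise during tissue dissociation, and their part in the class differences was not tested. The list for lipid synthesis, the process Thrsp is known for, was near 0: 1 of 15 genes was higher, none was lower and the median was 0.02 log2 units. Fasn and Scd1 were at 5.53 and 7.01 CPM in Thrsp/Scgb3a1 cells, and Mlxipl was at 0.

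Against Penk cells the differences were fewer: 45 of 1627 genes (2.77%) were higher and 59 (3.63%) lower in 8 of 8 pools. The mesenteric sums of Penk cells held 7 to 24 cells, so this comparison is thin on that side. Higher were Csf2rb, the shared beta chain of the receptors for GM-CSF, IL-3 and IL-5 (1.24 log2 units; 229 against 89.3 CPM), the apolipoprotein gene Apoe (1.10; 1032 against 378 CPM) and Gpihbp1 (0.99; 1454 against 677 CPM). Lower were Tnfaip2 (-1.63), the membrane protein gene Itm2a (-1.60; 146 against 784 CPM), the endocytic gene Ehd4 (-1.50), the lipid phosphatase genes Plpp1 and Plpp3 (-1.41 and -1.20) and the transcription factor gene Mef2c (-0.99). Apoe therefore lay between the classes: its level per pool was 621 to 1170 CPM in Thrsp/Scgb3a1 cells, 254 to 808 CPM in Penk cells and 1342.5 to 3875 CPM in Enpp2 cells. Rbp7 and Rgcc, high against Enpp2 cells, were shared with Penk cells, where Rgcc was higher (2210 against 1517 CPM).

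**Figure D2:**
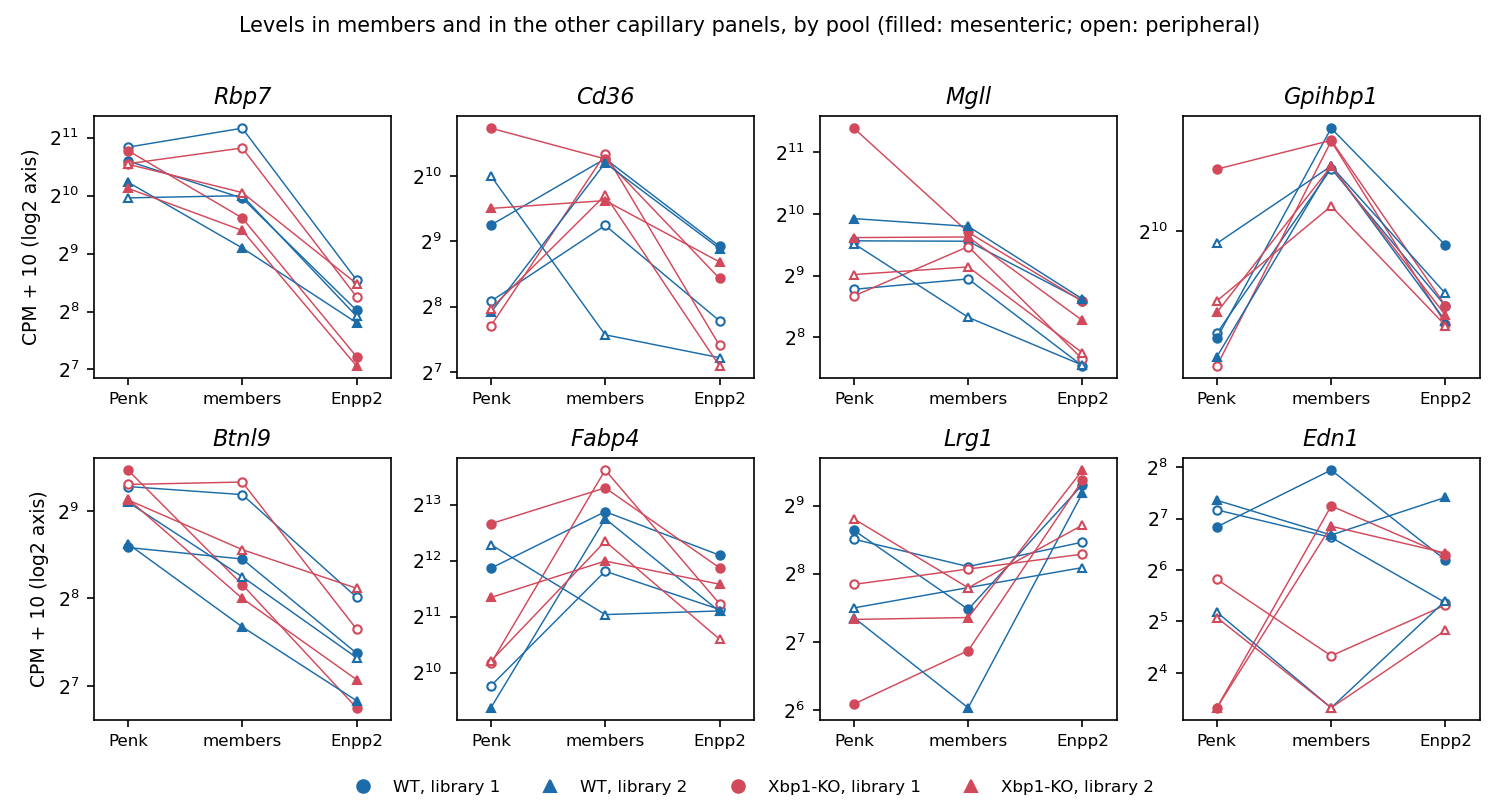
CPM plus 10 on a log2 axis for 8 genes in Penk, Thrsp/Scgb3a1 (members) and Enpp2 cells; each line is 1 of 8 pools (color, genotype; shape, library; filled points, mesenteric nodes). Rbp7, Cd36, Mgll and Gpihbp1 are above the Enpp2 cells in 8 of 8 pools and Lrg1 is below, while Gpihbp1 is also above the Penk cells in 8 of 8.

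The set was not uniform in Fabp4, the fatty-acid-binding protein of capillary endothelium and fat. Fabp4 made up more than 1% of the UMIs in 135 of the 876 cells (15.4%), against 3.97% of Penk and 5.4% of Enpp2 cells, 18.3% of arterial-panel, 34.1% of venous-panel and 30.4% of no-panel cells. Cells of this kind were 9.52%, 31.0%, 0 of 18 (which allows up to 16.7%) and 14.3% of the peripheral pools, and 17.6%, 20%, 14.5% and 8.0% of the mesenteric pools. The tissues overlapped, and the highest share was that of the Xbp1-KO peripheral pool of library 1.

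Within the mesenteric nodes, the Fabp4-rich cells differed from the remaining Thrsp/Scgb3a1 cells in many genes, with 245 of 1702 genes higher and 240 lower in 4 of 4 pools. They were divided by 1 of the genes measured, so these values describe them with no test. Timp4, a metalloproteinase inhibitor, was 4.01 log2 units higher (268 against 3.56 CPM), the tight junction gene Cldn5 3.65 (1085 against 81.8 CPM) and Fabp5 3.44 (2617 against 196 CPM). Also higher were the glycerol channel gene Aqp7 (2.64), Cyp4b1 (2.55), the lipase inhibitor Angptl4 (2.42) and Cd36 (2.09; 3255 against 711 CPM). Cd24a (-2.95), Cd74 (-2.82), Esm1 (-2.66), the endothelin gene Edn1 (-1.88) and Hbegf (-1.75) were lower in them. Of 5 adipocyte markers, Cfd had 25 UMIs, Retn 3, Adipoq 1, Cidec 1 and Plin1 0 in the Fabp4-rich cells of all 8 pools (78.4 CPM in sum), and 28 of these 30 UMIs came from the mesenteric Xbp1-KO pool of library 1. The remaining cells had 0 UMIs of all 5. The part of adipocyte RNA in these differences was not tested.

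Fabp4 was lower at higher panel counts. Just outside the rule, 174 cells with 1 panel UMI had 25060 CPM of Fabp4 when summed. The 278 cells at the threshold of 2 UMIs had 11783 CPM, the 204 cells with 3 had 6587 CPM and the 394 cells with 4 or more had 4025 CPM. Cd36 stepped down too, at 2419, 1406, 919 and 832 CPM, while Rbp7 did not, at 1109, 1351, 1102 and 963 CPM. The groups differ in tissue and depth too: 56.3%, 60.4%, 65.2% and 82.5% of their cells were mesenteric, and their median depth rose from 1964 to 3092 UMIs.

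**Figure D3:**
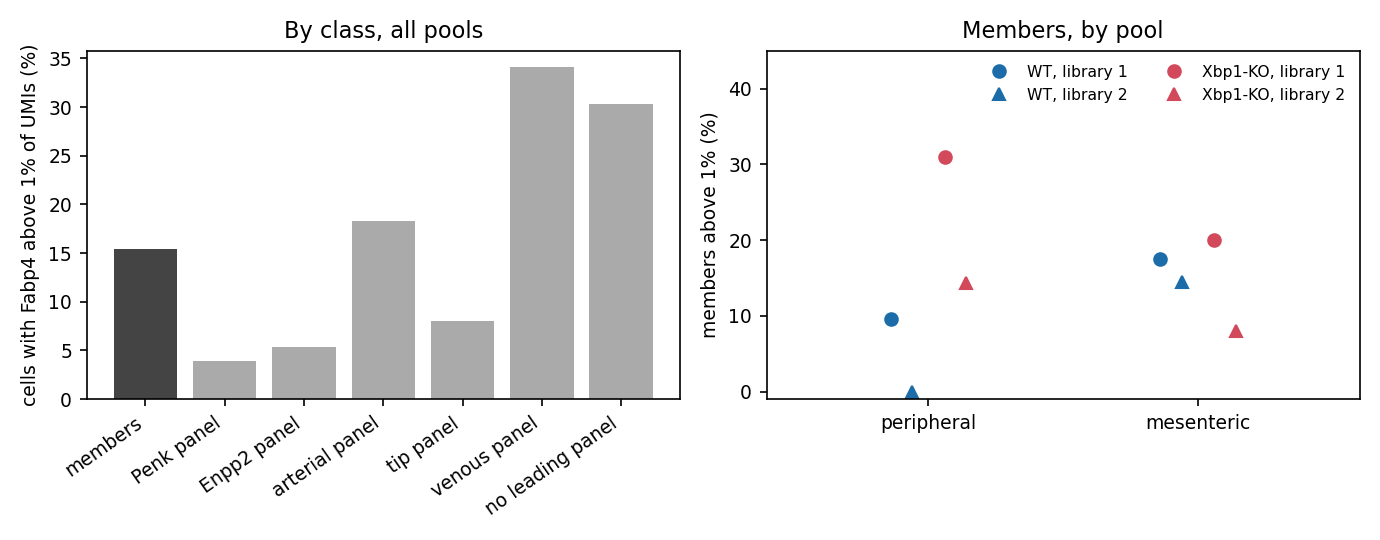
Left, percentage of cells in each class in which Fabp4 exceeds 1% of UMIs; right, the same percentage among Thrsp/Scgb3a1 cells in each of the 8 pools (color, genotype; shape, library). The chosen cells stand at 15.4%, above the Penk and Enpp2 classes and below the no-panel cells at 30.4%, and their pools run from 0% to 31.0%.

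Mesenteric cells with and without a Scgb3a1 UMI were compared within the 4 pools, again as a description. Of 1615 genes, 149 were higher and 149 lower in 4 of 4 pools. With 4 pools, some genes keep the same direction without any difference. That share was not computed, here or for the Fabp4-rich cells above. Cells with Scgb3a1 had more of Igfbp4 (0.97 log2 units; 203 against 106 CPM), Cited2 (0.86), Clu (0.84; 385 against 199.6 CPM), Tmem252 (0.83) and the connexin gene Gja4 (0.74). They had less of the interferon-induced chemokine gene Cxcl9 (-1.80; 55.0 against 172 CPM), Cldn5 (-1.20), Fabp4 (-1.02; 4561 against 8794 CPM) and Fabp5 (-0.89). Fabp4-rich cells were 10.3% of the 301 cells with Scgb3a1 and 20% of the 325 without.

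Cells that met the rule were a larger part of the kept blood endothelium in mesenteric than in peripheral nodes. Their share of kept blood endothelial cells was 11.3% (exact 95% binomial interval 9.52% to 13.3%), 7.85% (6.18% to 9.80%), 6.84% (4.11% to 10.6%) and 7.11% (5.0% to 9.75%) in the peripheral pools. In the mesenteric pools it was 27.7% (25.2% to 30.4%), 21.8% (18.0% to 26.0%), 21.2% (16.6% to 26.3%) and 24.6% (21.2% to 28.2%). The intervals cover counting error only. The groups did not overlap, at 8.28% ± 2.07 (SD, n = 4 pools) in peripheral and 23.8% ± 3.00 (SD, n = 4) in mesenteric nodes. The panel holds Scgb3a1, itself higher in mesenteric cells, so the share follows from the rule in part and is not tested. Cells with Thrsp as the sole panel gene were 189 of 250 in peripheral and 241 of 626 in mesenteric nodes, so most of the added mesenteric cells carried another panel gene. Thinning, given next, used the same rule. With every cell thinned to 2000 UMIs, which left out 40 to 377 shallower cells per pool, the means were 7.01% ± 1.13 and 17.7% ± 2.78. Between genotypes the shares overlapped, at 16.8% ± 9.45 in WT and 15.3% ± 9.16 in Xbp1-KO pools, and the difference of -1.42 percentage points was 1.85 without library 1 and -4.68 without library 2.

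The next comparison asked which genes differed between peripheral and mesenteric Thrsp/Scgb3a1 cells. Counts were summed per pool and 4351 genes were tested with edgeR's quasi-likelihood test, with 4 pools on each side. At an adjusted p of 0.05, 27 genes (0.621%) differed, 13 higher and 14 lower in peripheral nodes, and 290 (6.67%) had an unadjusted p under 0.05. The directional shares were 0.299% higher and 0.322% lower. Col13a1 and Scgb3a1, which the rule used, are among the 27. Since the rule takes in cells by Scgb3a1, the sides are unlike mixes. Thrsp was the sole panel gene in 75.6% of peripheral and 38.5% of mesenteric cells. The part of this mix in the tissue differences was not tested. With the library as a replicate block, 84 genes (1.93%) were called, 50 higher (1.15%) and 34 lower (0.781%), and with a library-by-genotype term added 154 (3.54%). Peripheral cells were higher in Itm2a, Cald1, Cst3 and Mef2c, and mesenteric cells in Nkx2-3, Cyp26b1, Rassf9, Thbs1, Edn1 and Tcf15. The summed counts do not separate fewer cells with a gene from less RNA per cell, and the called genes were not compared per cell.

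Nkx2-3 (chromosome 19, 43612325 to 43615892, + strand), the homeobox gene known for the vessels of spleen and gut-associated lymphoid tissue, was at 0, 5.07, 0 and 8.15 CPM in the peripheral and at 49.0, 49.8, 64.9 and 51.9 CPM in the mesenteric pools. In UMIs this is 2 against 102, a ratio of 19.1 between the levels with a 95% counting interval of 5.16 to 160.1. The groups did not overlap, and the fitted difference was -5.09 ± 0.78 log2 units (SE, adjusted p 0.00321), a value that depends on the prior count where a pool is at 0. Cyp26b1, which degrades retinoic acid, was at 2.79, 5.07, 0 and 8.15 CPM in peripheral and 81.4, 49.8, 41.7 and 62.0 CPM in mesenteric pools, or 3 against 132 UMIs, a ratio of 16.5 (5.52 to 81.0). Its groups did not overlap either (-3.88 ± 0.58, adjusted p 0.00292). Both genes lost their calls without library 1, where the adjusted p was 0.438 and 0.467 at differences of -3.30 and -3.27.

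Rassf9 is a Ras-association domain gene of vesicle trafficking, and Thbs1 encodes the matrix glycoprotein thrombospondin 1. Without library 1 and without library 2, Rassf9 was at -3.04 and -2.82, and Thbs1 at -2.46 and -2.60. Rassf9 was at 16.8, 15.2, 16.3 and 16.3 CPM in peripheral and 109, 126, 125 and 141 CPM in mesenteric pools (-2.92 ± 0.32, adjusted p 0.000105). Thbs1 was at 22.3, 40.5, 32.7 and 48.9 CPM in peripheral and 162, 199, 208 and 249.5 CPM in mesenteric pools (-2.63 ± 0.28, adjusted p 0.000105). Neither gene's groups overlapped. Edn1, which encodes the vasoconstrictor endothelin 1, was at 89.4, 10.1, 0 and 0 CPM in peripheral and 236, 142, 92.6 and 106 CPM in mesenteric pools (-2.78 ± 0.53, adjusted p 0.0204). Its groups came close without overlapping, and the difference was -1.74 without library 2 and -7.66 without library 1, where the peripheral pools are at 0. Tcf15, part of the Meox2 and Tcf15 pair that raises lipid uptake in heart capillaries, was at 67.0, 198, 49.0 and 155 CPM against 275, 272, 232 and 239 CPM (-1.27 ± 0.23, adjusted p 0.0148, and 0.184 without library 1). Both Xbp1-KO peripheral pools were above both WT ones, and all 4 were below the mesenteric pools. Without the Fabp4-rich cells the difference of Tcf15 was -1.97 (adjusted p 0.00155), and in cells with a Scgb3a1 UMI alone it was -0.64 (0.806).

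Of the remaining genes higher in mesenteric cells, Tmem252 (-1.64), Tox2 (-1.52), Fmo2 (-1.25) and the glutamine synthetase gene Glul (-0.95) passed the test with adjusted p of 0.00916 to 0.0481. Without library 1 Tox2 (0.493) and Fmo2 (0.365) did not, nor did Tox2 without library 2 (0.0692). Higher in mesenteric cells too were 2 of 13 heat-shock genes, Hspa1a (-1.59 ± 0.35, adjusted p 0.0481) and Hspb1 (-0.80 ± 0.15, adjusted p 0.0186), against 0.322% of all genes called lower. None of the 13 estimates was above 0 and their median was -0.63, against -0.02 over all genes. With the replicate block 5 of 13 were called lower (Hspa1a, Hspa1b, Dnajb1, Hsp90aa1 and Hspb1), against 0.781% of all genes, and the median was -0.47. The immediate-early list, which also responds to handling, had the other direction in 11 of 15 estimates, with a median of 0.29, 0 calls without the block, and Junb and Nr4a1 called higher in peripheral cells with it. Reads may have been split between Hspa1a and Hspa1b, whose sequences are nearly the same, so each is uncertain on its own. Heat-shock transcripts mark handling stress, the sources describe digestion of peripheral nodes only, and the part of dissociation in the tissue differences was not tested.

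Among genes higher in peripheral cells, Itm2a was at 327, 284, 408 and 277 CPM in peripheral and 81.4, 126, 69.5 and 70.3 CPM in mesenteric pools (1.88 ± 0.24, adjusted p 0.000341). Cst3, the gene for the protease inhibitor cystatin C, was at 2360.0, 2595, 1895 and 2218 CPM against 1132, 1245, 968 and 857 CPM (1.10 ± 0.17, adjusted p 0.00292). Cald1, an actin- and myosin-binding protein gene, was at 134, 132, 131 and 147 CPM against 60.2, 34.5, 32.4 and 31.8 CPM (1.7 ± 0.26, adjusted p 0.00292). No gene of these 3 had overlapping groups, and all 3 passed without either library. Mef2c, a transcription factor gene of vessel integrity, was at 1084, 725, 719 and 677 CPM against 485, 383, 352 and 437 CPM (0.94 ± 0.19, adjusted p 0.0351, and 0.0708 without library 1). Ednrb, a receptor for endothelins, was at 165, 243, 229 and 163 CPM against 79.1, 107, 97.3 and 107 CPM (1.01 ± 0.22, adjusted p 0.0481), so that ligand and receptor differed in opposite directions. Ednrb did not pass without library 1 (0.625). In the cells with a Scgb3a1 UMI alone, a choice made after seeing the data that leaves 31 peripheral cells, the difference of Cst3 was 0.35 (adjusted p 0.822) and that of Mef2c 0.33.

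Also higher in peripheral cells were the thromboxane receptor gene Tbxa2r (1.86 ± 0.38), the carboxypeptidase gene Cpe (1.84 ± 0.38), the neutrophil chemokine gene Cxcl1 (1.39 ± 0.31), Marcksl1 (1.19 ± 0.26), the protease gene Adamts1 (1.18 ± 0.25) and Itih5 (1.05 ± 0.23), at adjusted p of 0.0315 to 0.0481. None of these 6 passed without library 1 (adjusted p 0.488 to 0.973), where Cxcl1 (0.44), Adamts1 (0.63), Marcksl1 (0.74) and Itih5 (0.71) had smaller differences, and Tbxa2r (2.13) and Cpe (2.48) larger ones. Tbxa2r did not pass without library 2 either. In the cells with a Scgb3a1 UMI alone, Cxcl1 was at 0.23 and Marcksl1 at 0.58, and of the genes higher in mesenteric cells Tox2 was at -0.81. Glul (-2.15), Tmem252 (-2.60) and Hspb1 (-1.43) were further from 0 there. With the replicate block, Rasd1 (1.42 ± 0.28), Nr5a2 (1.19 ± 0.29) and Bhlhe40 (1.14 ± 0.22) were also higher, and Angptl4 (-1.52 ± 0.36) and the matrix gene Fbln2 (-1.32 ± 0.25) lower. Without library 1 none of these 5 passed, and the differences of Nr5a2 and Bhlhe40 were 0.63 (adjusted p 0.973) and 0.52 (0.946), against 1.6 for each without library 2. Angptl4 did not pass without library 2 either (-1.06, adjusted p 0.423).

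**Figure D4:**
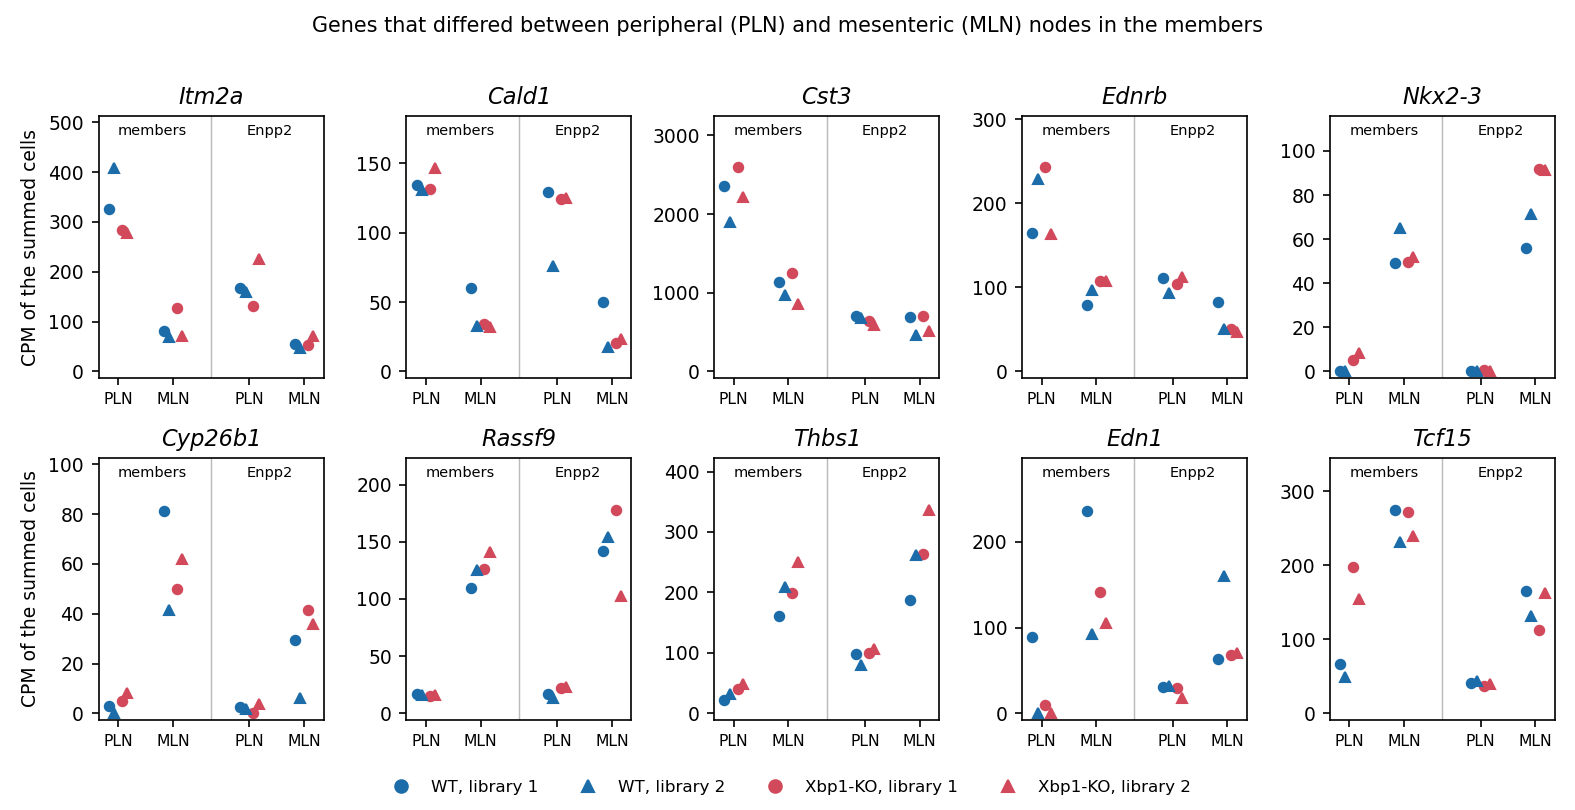
CPM of 10 genes in peripheral (PLN) and mesenteric (MLN) pools, for Thrsp/Scgb3a1 cells (members) on the left and Enpp2 cells on the right of each plot; 1 point per pool (color, genotype; shape, library). In Thrsp/Scgb3a1 cells the peripheral and mesenteric points of all 10 genes are apart, and Nkx2-3, Rassf9 and Thbs1 show the same order in Enpp2 cells while Cst3 does not.

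Of the lipid-uptake genes, 2 of 13 had an estimate above 0. In the test 1, Tcf15, was called, and with the replicate block 5 were (Cd36, Fabp4, Fabp5, Angptl4 and Tcf15), all lower in peripheral cells, where 0.781% of all genes were called lower. The list's median was -0.51, against -0.02 over all genes. Cd36 and Fabp4 were each lower in peripheral pools in 2 of 4 pairs, the 2 WT pairs, so their tissue means rest on WT (values are given with the genotype comparison). Of the other lists tested, 1 of 10 niche chemokine genes (Cxcl1) was called and none of 6 lipid synthesis, 16 capillary barrier, 10 VEGF, 12 Notch and arterial, 10 venous adhesion, 11 BMP and TGF-beta, 28 XBP1 and ER, 15 immediate-early, 16 interferon, 12 antigen presentation or 13 basement membrane genes was. The replicate block added 1 or 2 calls each in 6 of these, among them the ER chaperone gene Hspa5 (0.60 ± 0.15, adjusted p 0.0367) and Bmp2, both higher in peripheral cells.

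The tissue difference itself was then compared with that of Enpp2 cells, in 1 fit with a term for each pool and for the class. Of 7271 genes, 26 (0.358%) had a difference between tissues that differed between the classes. They include Thrsp, a gene by which the cells were chosen and from which nothing is read here, and the hemoglobin gene Hbb-bs, for which 1 barcode held 1334 of the 1339 UMIs in Thrsp/Scgb3a1 cells. Lymphatic markers in Enpp2 cells summed to at most 725 CPM in peripheral and to 1725 to 3513 CPM in mesenteric pools, and their part in these differences was not tested. Lrg1 had the opposite order in the 2 classes: in Thrsp/Scgb3a1 cells it was at 265, 258, 212 and 212 CPM in peripheral and 168, 107, 55.6 and 154 CPM in mesenteric pools, and in Enpp2 cells at 343, 302, 263 and 410 CPM in peripheral and 623, 652, 571 and 724 CPM in mesenteric pools. Within each class the tissues did not overlap, and they stood in opposite order. The difference of differences was 1.84 ± 0.20 log2 units (adjusted p 1.35e-10), and 1.79 without library 1 and 1.79 without library 2. Cst3 was 0.98 ± 0.13 apart (adjusted p 1.04e-07, and 1.0 without library 1), since in Enpp2 cells its 591 to 708 CPM in peripheral overlapped the 461 to 699 CPM in mesenteric pools.

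Madcam1, the addressin by which gut-homing lymphocytes bind, was at 80.2 to 583 CPM in mesenteric and 3.68 to 13.3 CPM in peripheral Enpp2 cells, but at 7.66 to 12.3 and 0 to 30.4 CPM in Thrsp/Scgb3a1 cells. The difference of 5.79 ± 0.82 (adjusted p 6.04e-07) was -0.35 without library 1, where both peripheral pools of library 2 had no Madcam1 UMI in Thrsp/Scgb3a1 cells. The atypical chemokine receptor gene Ackr1 (4.38, adjusted p 0.00223) and Ehd3 (3.76, adjusted p 5.63e-06) were likewise at 53.5 to 136 CPM and 84.7 to 166 CPM in mesenteric Enpp2 cells and at no more than 8.92 and 19.2 CPM in mesenteric Thrsp/Scgb3a1 cells. Vim, the intermediate filament gene, went the other way (-1.03 ± 0.15, adjusted p 3.10e-06): it was at 260 to 367 CPM in peripheral and 329 to 699 CPM in mesenteric Thrsp/Scgb3a1 cells, and at 837 to 1288 and 480 to 1040 CPM in Enpp2 cells. In both classes the tissues overlapped.

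Nkx2-3 and Rassf9 were also higher in mesenteric Enpp2 cells, and neither was among the 26. Nkx2-3 was at 0 to 0.749 CPM in peripheral and 56.1 to 91.8 CPM in mesenteric Enpp2 cells, and Rassf9 at 13.3 to 23.3 and 103 to 178 CPM. The 2 classes come from the same pools and libraries, so these values are side by side and not independent. Against Penk cells, 11 of 5177 genes (0.212%) differed in their tissue effect, and the one that met the rule for named genes was Edn1 (-2.50 ± 0.59, adjusted p 0.00972). It was not called without library 1 (-11.2, adjusted p 0.786) or without library 2 (-2.48, adjusted p 0.630).

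Xbp1, the targeted gene, was detected in all 8 pools. It was at 154 and 214 CPM in the WT peripheral and mesenteric pools of library 1 and at 70.9 and 111 CPM in the Xbp1-KO ones, and at 147 and 255 CPM against 147 and 151 CPM in library 2. Xbp1-KO pools averaged 120 ± 37.2 CPM (SD, n = 4) and WT pools 192 ± 51.4 CPM, the level was lower in 4 of 4 pairs, and the ranges overlapped. The pair of peripheral pools in library 2 differed by less than 1 CPM. The difference of -0.64 ± 0.25 log2 units was not called (adjusted p 1.0). It was -0.47 without library 1, -0.99 without library 2 and -1.47 in cells with a Scgb3a1 UMI, and was called in none of 12 alternatives. Which exon is deleted is not stated here, and counts at the 3′ end need not see an excised exon.

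Of the genes that XBP1 is known to raise and other ER genes, none of 28 tested passed, with 15 estimates above 0 and a median of 0.02 log2 units, beside 0.00 over all genes. Hspa5, the ER chaperone BiP, was at 413 and 288 CPM in the WT pools of library 1 and 421 and 260 CPM in the Xbp1-KO ones, and at 653 and 259 against 408 and 370 CPM in library 2. Hsp90b1, the ER form of HSP90, was lower in 4 of 4 pairs, at 472, 447, 457 and 352 CPM in WT and 405, 372, 228 and 306 CPM in Xbp1-KO pools (-0.36 ± 0.21, adjusted p 1.0). Pdia6 and Dnajb9 differed by 0.17 ± 0.35 and 0.32 ± 0.33. Among all 4351 genes 0 (0.0%) were called for genotype by edgeR's quasi-likelihood test, 134 (3.08%) had an unadjusted p under 0.05, and DESeq2 called 0.

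With the library as a replicate block, 13 genes (0.299%) were called and all were higher in Xbp1-KO cells, most of them immediate-early and heat-shock genes. Hspa1a was at 648 and 1879 CPM in the WT peripheral and mesenteric pools of library 1 and at 968 and 3696 CPM in the Xbp1-KO ones, and at 1764 and 4512 against 2731 and 8015 CPM in library 2. All 4 Xbp1-KO pools were above their WT partners while the genotypes' ranges overlapped (0.80 ± 0.09, adjusted p 6.17e-06, and 1.0 without the block). Fosb, an AP-1 subunit, was at 1059 and 539 CPM against 1130.0 and 693 CPM in library 1, and at 572 and 417 against 1647 and 1681 CPM in library 2 (0.92 ± 0.20, adjusted p 0.0284). The difference was therefore mostly in library 2, at 1.94 without library 1 and 0.23 without library 2. Dusp1, a phosphatase that switches off MAP kinases, was at 2056 and 1585 against 2595 and 2405 CPM in library 1, and at 2107 and 1566 against 3302 and 2701 CPM in library 2 (0.62 ± 0.09, adjusted p 0.000645).

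Others called with the block were Sbno2 (1.18 ± 0.23), Hspa1b (0.96 ± 0.09), the matricellular gene Ccn1 (0.94 ± 0.19), Klf6 (0.79 ± 0.16), Jund (0.59 ± 0.10) and Jun (0.57 ± 0.09), at adjusted p of 7.44e-07 to 0.0206, and at 0.687 to 1.0 without the block. Fabp4 was called as well (0.74 ± 0.12). Of the named genes, Hspa1a was at 0.86 and 0.82 and Hspa1b at 1.02 and 0.98 without library 1 and without library 2. The others were smaller without library 2 than without library 1, and did not pass there. Without library 1 and without library 2, Ccn1 was 1.93 and 0.45, Jun 0.92 and 0.30, Jund 0.89 and 0.39, and Klf6 1.19 and 0.51. Gm42418 (0.33 ± 0.07) overlaps ribosomal RNA sequence and is uncertain. Of the 15 immediate-early genes 6 were called with the block (Fos, Fosb, Jun, Jund, Egr1 and Dusp1), and 15 of 15 estimates were above 0, with a median of 0.55 against -0.01 over all genes. Of the 13 heat-shock genes 2 were called and 13 of 13 estimates were above 0, with a median of 0.42. These lists respond to dissociation, and sex-linked transcripts moved with genotype in opposite ways in the 2 libraries. The part of either in the genotype values was not tested. A fit that adds a library-by-genotype term, which takes up a difference of that crossed kind, called 44 genes (1.01%). Of these, 39 were higher (0.896%) and 5 lower (0.115%) in Xbp1-KO cells. Its remaining spread is that between the nodes within a genotype and library, whose sex-linked levels were alike. Whether those pools hold the same animals is not stated. If they do, the genotype p-values of this fit and of the block treat nodes of the same animals as replicates. Interferon genes had a median of -0.29 with the block and 0 of 16 called, and 0 of 12 antigen presentation genes were called.

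**Figure D5:**
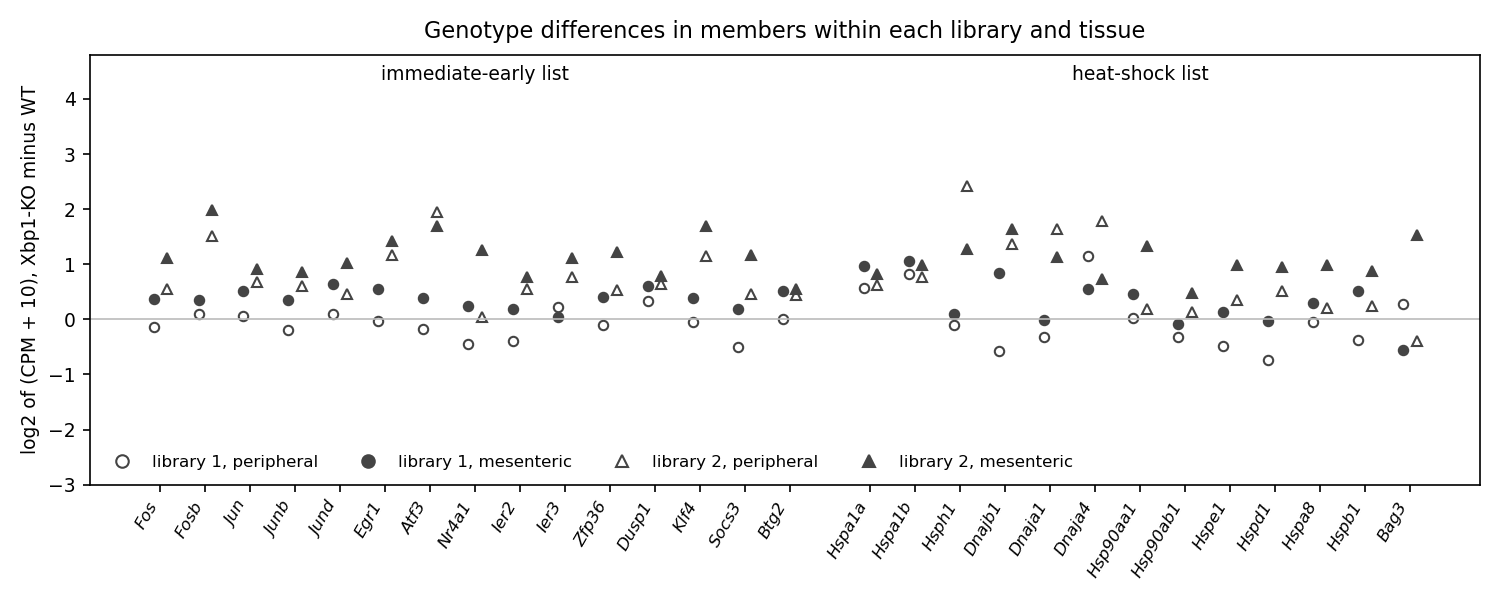
Log2 difference of CPM plus 10, Xbp1-KO minus WT, for each gene of the immediate-early and heat-shock lists in Thrsp/Scgb3a1 cells; 4 points per gene, 1 for each library and tissue (shape, library; filled, mesenteric). The fitted difference is above 0 for 15 of 15 and 13 of 13 genes, and for Fosb and Jun the triangles of library 2 lie above the circles of library 1.

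Whether the genotype difference depended on the tissue was tested in the same fit. No gene was called (0 of 4351, 0.0%), 83 (1.91%) had an unadjusted p under 0.05, DESeq2 called 0, and with the replicate block 3 (0.0689%) were called, or 9 (0.207%) with the library-by-genotype term added. Fabp4 was at 3581 and 12537 CPM in the WT and Xbp1-KO peripheral pools of library 1 and at 7489 and 10058 CPM in the mesenteric ones. In library 2 it was at 2091 and 5185 CPM in peripheral and 6865 and 4063 CPM in mesenteric pools. Xbp1-KO was above WT in both peripheral pairs, and the mesenteric pairs pointed in opposite directions (1.73 ± 0.24, adjusted p 0.000514). Cd36 was also above WT in both peripheral Xbp1-KO pools and in neither mesenteric one, with 595 and 1282 CPM and 1217 and 1214 CPM in library 1, and 179.7 and 823 CPM and 1163 and 777 CPM in library 2 (1.5 ± 0.29, adjusted p 0.0273).

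In the fit without a block, which called neither gene, the differences were 1.59 for Fabp4 and 1.48 for Cd36, and 0.40 and 0.68 in cells with a panel of at least 3 UMIs. Without the 135 cells above 1% Fabp4, a choice made after seeing the data, that fit gave 0.94 for Cd36. The value of Fabp4 without those cells is set by their removal and is not read here. The part of Fabp4-rich cells in these differences was not tested. The peripheral sums of library 2 rest on 18 WT and 35 Xbp1-KO cells. Cxcl9, a chemokine gene induced by interferon-gamma, ran the other way (-3.24 ± 0.47, adjusted p 0.000569): it was at 360 and 91.2 CPM in peripheral and 95.9 and 253 CPM in mesenteric pools of library 1, and at 81.7 and 24.5 and 69.5 and 98.8 CPM in library 2. Xbp1-KO was below WT in both peripheral pairs and above it in both mesenteric pairs. The difference was -3.08 without the block and -0.82 in cells with a panel of at least 3 UMIs, and 7 of 9 alternatives lost the call.

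The genotype difference was set beside that of the other capillary classes. Against Penk cells 11 of 5177 genes (0.212%) differed, and against Enpp2 cells 8 of 7271 (0.11%). In simulated counts the class test called 0.12% of unchanged genes at the same threshold. Those counts held planted changes in the tissue effect and no library structure, so that share cannot be set against the 0.11%. Fibroblast markers summed to as much as 5106 CPM in a WT pool of Penk cells and to at most 58.1 CPM in the Xbp1-KO pools, and their part in the differences from Penk cells was not tested. Ccn1 went in opposite directions in Penk and Thrsp/Scgb3a1 cells. In Penk cells it was at 568, 433, 552 and 769 CPM in WT (peripheral and mesenteric of library 1, then of library 2) and 321, 174, 528 and 413 CPM in Xbp1-KO pools, against 436, 389, 180 and 218 CPM and 583, 536, 538 and 821 CPM in Thrsp/Scgb3a1 cells. It was lower in Xbp1-KO Penk cells and higher in Xbp1-KO Thrsp/Scgb3a1 cells in 4 of 4 pairs (1.46 ± 0.29, adjusted p 0.000619). The difference was 2.18 without library 1 and 1.55 without library 2, where it was not called. Igfbp3, an IGF-binding protein gene, had a difference of -1.21 ± 0.26 (adjusted p 0.00397), and in Penk cells its level of 4243 CPM in 1 mesenteric Xbp1-KO pool rests on 7 cells. It was not called without library 1 (0.504) or without library 2 (1.0). Bmp2 differed by 3.34 from Penk and 2.85 from Enpp2 cells at 0 to 162 CPM in Thrsp/Scgb3a1 cells. Against Penk cells its value was 6.06 without library 2. Against Enpp2 cells it ran from 0.11 with doublet-marked cells left out to 6.53 without library 1, and 4 of 8 alternatives lost the call. Both Hbegf (-1.10 ± 0.25) and Fam167b (-0.78 ± 0.18) differed from Enpp2 cells at an adjusted p of 0.0429. Hbegf was not called without library 1 (1.0) or without library 2 (0.725), and Fam167b was at -0.48 without library 1 (1.0).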

How the data were processed

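Gene and hashtag counts per cell barcode were deposited by the authors as whole UMI counts. The file headers name Cell Ranger 6.0.1, and the submitters' processing notes list version 6.1 and mm10. No normalization had been applied. Barcodes were filtered and classed by the rule given above (scanpy 1.11.5), and the members and gene lists were chosen with earlier results of these data known. Doublets were marked but kept. Counts were summed per pool and class and tested with edgeR 4.0.16 in R 4.3.3 (quasi-likelihood test, TMM scaling, Benjamini-Hochberg adjustment at 0.05), with 4 group means and no block. Fits with the library as a replicate block, with DESeq2 1.42.0, and with other filters were alternatives. Fits within members without 1 library had terms for tissue and genotype only. Their p-values rest on how these effects combine and not on replicate pools. The block takes the library as the pair, which all 4 pools share. Deviations of pools of the same library correlated at 0.082 to 0.257 over 4351 genes. Sex-linked levels were alike only between the nodes of a genotype in a library, a pairing that the library-by-genotype term takes up. Class differences were tested with a term per pool. Genes named are at 50 CPM or more in a group, outside the rule, called, and changed the same way in every pair, up to 12 per direction. Blocked calls are named as such, and a few genes of the gene lists are named beside their list's count. In simulated counts, 51% of genes changed 2-fold and 100% of those changed 4-fold were called (4082 genes), and 42% and 96% in the class test (6886 genes). Of unchanged genes, 0.258% and 0.12% were called. Gene coordinates are from GENCODE M21 on GRCm38, which held 99.6% of the gene IDs.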

Additional observations from a re-analysis of the deposited data

Results flagged for a closer look

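These are tests in which an effect in Thrsp/Scgb3a1 cells differed from the same effect in another class, or in the other tissue. Each is a value in log2 units from edgeR's quasi-likelihood test, and classes from the same pools are not independent. The tissue effect (peripheral minus mesenteric) differed from that of Enpp2 cells for 26 genes. Among them were Madcam1 (5.79), Ackr1 (4.38), Ehd3 (3.76), the prostaglandin transporter gene Slco2a1 (1.97), the adhesion gene Vcam1 (1.87), Lrg1 (1.84), Cd24a (1.5), Cst3 (0.98), Clu (0.94), Plscr2 (0.82), Apoe (0.76) and Ehd4 (0.73). On the other side stood Thbs1 (-1.23), Serpine2 (-1.08), Fbln2 (-1.05), the cadherin gene Cdh13 (-1.03), Vim (-1.03) and Lmna (-0.88). Without library 1, which leaves 1 pool per group, Lrg1 was at 1.79, and all but Lrg1 and Ehd3 lost their calls. The values of Slco2a1 and Cd24a were then 0.50 and 0.36, that of Ackr1 was 8.64, and that of Ehd3 was 6.67, against 2.86 without library 2. Thbs1 was thus higher in mesenteric pools in both classes, by more in Thrsp/Scgb3a1 cells.

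The tissue effect differed from that of Penk cells for 11 genes, with Edn1 at -2.50. The genotype effect (Xbp1-KO minus WT) differed from that of Penk cells for 11 genes and from that of Enpp2 cells for 8. Of the 11, those that met the rule for named genes were Mt1 (4.33), Bmp2 (3.34), Cpe (2.69), Ccn1 (1.46) and Igfbp3 (-1.21). Cpe was not called without library 1 (6.97) or without library 2 (1.59), both at an adjusted p of 1.0, and Mt1 was not called without library 1 (2.99, adjusted p 1.0). Mt1, a metallothionein gene, was at 141 and 448 CPM in the WT Penk pools of library 1 and 12.7 and 0 CPM in the Xbp1-KO ones, and at 75.4 and 29.0 against 101 and 23.0 CPM in Thrsp/Scgb3a1 cells. Of the 8, those that met it were Bmp2 (2.85), Hbegf (-1.10) and Fam167b (-0.78). Bmp2 was at 50.3 and 14.5 CPM in WT and 162 and 11.5 CPM in Xbp1-KO pools of library 1, and at 0 in both WT pools of library 2.

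Within Thrsp/Scgb3a1 cells, the genotype effect differed between tissues under the replicate block for Fabp4 (1.73), Cd36 (1.5) and Cxcl9 (-3.24).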

How the results depend on the processing

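Calls depended on the fit more than directions did. For the tissue effect, 27 genes were called, and 14 by DESeq2, 59 with no low-count filter, 7 in WT pools, 5 in cells with a Scgb3a1 UMI, 84 with the replicate block, 154 with the block and the library-by-genotype term, and 32 to 90 when leaving out 1 library. For genotype the count of 0 became 7 with no filter, 13 with the block, 44 with both terms and 9 to 65 without 1 library. For the genotype by tissue difference it became 3 with no filter, 3 with the block and 9 with both terms, and leaving out a library leaves no residual spread. The tissue effect against Penk cells had 0 calls by DESeq2, 6 with a panel of at least 3 UMIs and 1 to 15 without 1 library. The genotype effect against Penk cells had 1 by DESeq2, 4 with a panel of at least 3 UMIs, 4 without doublet marks and 3 without either library. Against Enpp2 cells the tissue count was 9 by DESeq2, 17 under a stricter hashtag rule and 3 to 63 without 1 library. The genotype count there was 0 by DESeq2, 15 with no filter, 2 with at least 3 UMIs, 2 without doublet marks and 2 to 17 without 1 library. The direction of 30 of 30 genes named for the tissue effect and 11 of 11 for genotype held under every alternative run. The exception among 18 genes against Enpp2 cells was Madcam1, at -0.35 without library 1 and 5.88 without library 2. The tissue difference in the share of cells was -12.4 points with at least 3 UMIs and -10.7 after thinning, and that between genotypes -4.68 to 1.85 without 1 library. Depth limits the peripheral sums of library 2 most, with 61216 UMIs in 18 WT cells. Several alternatives, such as leaving out Fabp4-rich cells, were chosen after seeing the data.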
